A study of Oryza sativa with 12 samples.

Results

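The WRKY transcription factors of rice (Oryza sativa) were examined in leaf blades of wild-type (WT) plants and of Oshmgb1 mutants. Members were taken as every locus whose deposited description contains "WRKY", which gave 104 of 32846 genes. Each of the 104 descriptions carried a WRKY number and no number occurred more than once, so loci are called here by that number, and rice WRKY numbering has differed between naming schemes. WRKY proteins are plant transcription factors named for the conserved amino acids at the start of their DNA-binding domain, and they bind W-box elements in promoters. Many are switched on quickly by pathogens, wounding and salicylate or jasmonate, downstream of MAP kinase cascades, and some are bound by short VQ-motif proteins. In rice, a few have also been tied to phosphate (Pi) uptake and to tolerance of low Pi.

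The study crossed genotype with Pi supply, with 3 libraries in each of 4 groups. WT and Oshmgb1 plants were kept at high Pi for 21 d, or at high Pi for 14 d and then at low Pi for 7 d, so that all blades came from seedlings treated for 21 d in total. HMGB1 is an abundant chromatin protein that binds and bends DNA, and the kind of mutation is not given in the sources used. A Pi concentration of 200 µM is written in the design text for both supplies, so the low one is not clear. Libraries are named below as WTH1 to WTH3 and WTL1 to WTL3 for WT at high and low Pi, and MTH1 to MTH3 and MTL1 to MTL3 for the mutant. Nothing in the labels states that replicates came from separate plants, so p-values measure the spread between these libraries, which may be technical. Expression was given by the authors as FPKM (fragments per kilobase of transcript, scaled to the mapped fragments of the library), with no read counts, so depth is unknown.

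The genotype and tissue labels were checked first, and the Pi labels were not checked. LOC_Os06g51220, which the files describe only as HMG1/2 and which is taken here to be OsHMGB1, lay between 516.41 and 725.71 FPKM in the 6 mutant libraries and between 1176.75 and 2146.98 in the 6 WT libraries, so the transcript was reduced in the mutant and not absent. The tissue label was checked with 4 RuBisCO small subunit loci, which summed to between 6454.09 and 16949.55 FPKM per library, and 16 seed storage loci, which summed to between 2.07 and 4.82.

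Of the 104 WRKY loci, 52 reached an FPKM of at least 1 in at least 3 of the 12 libraries and were tested, and the other 52 were not. Among the latter, 11 were listed at 0 in all libraries, and only 5 reached an FPKM of 1 in any library (WRKY10, WRKY12, WRKY62, WRKY77 and WRKY108). The tested loci had a median level of 4.67 FPKM, against 8.72 over all tested genes, and 17 of them averaged at least 10 FPKM. WRKY53 (LOC_Os05g27730), an elicitor-responsive factor phosphorylated by MAP kinases, was the most abundant, with group means from 89.1 ± 21.4 (SD, n = 3) FPKM in the mutant at high Pi to 144.9 ± 7.36 in WT at low Pi. It was followed by WRKY90 (LOC_Os09g30400) and by WRKY13 (LOC_Os01g54600), a factor known for raising salicylate-dependent defence in rice. WRKY13 kept similar group means, from 61.1 ± 17.1 to 75.1 ± 8.96 FPKM, and was called in no comparison. By locus number, 39 of the 104 loci lay in 12 runs of neighbours (successive loci no more than 100 locus numbers apart), and 14 of these 39 passed the filter. Chromosome 1 held 24 loci. Neighbouring copies and the paired runs on chromosomes 11 and 12 may share reads, and their levels are uncertain to that extent.

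The 4 groups ordered the WRKY loci unevenly. Of the 52 tested loci, 28 (53.8%) had their lowest group mean in the mutant at low Pi, against 30.6% of all tested genes. The highest mean fell in WT at low Pi for 23 loci (44.2%, against 37.6%) and in WT at high Pi for 15 (28.8%, against 17.5%). The map of 52 loci by library shows this as a block of low values in the mutant at low Pi and as uneven columns within WT at high Pi.

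**Figure D1:**
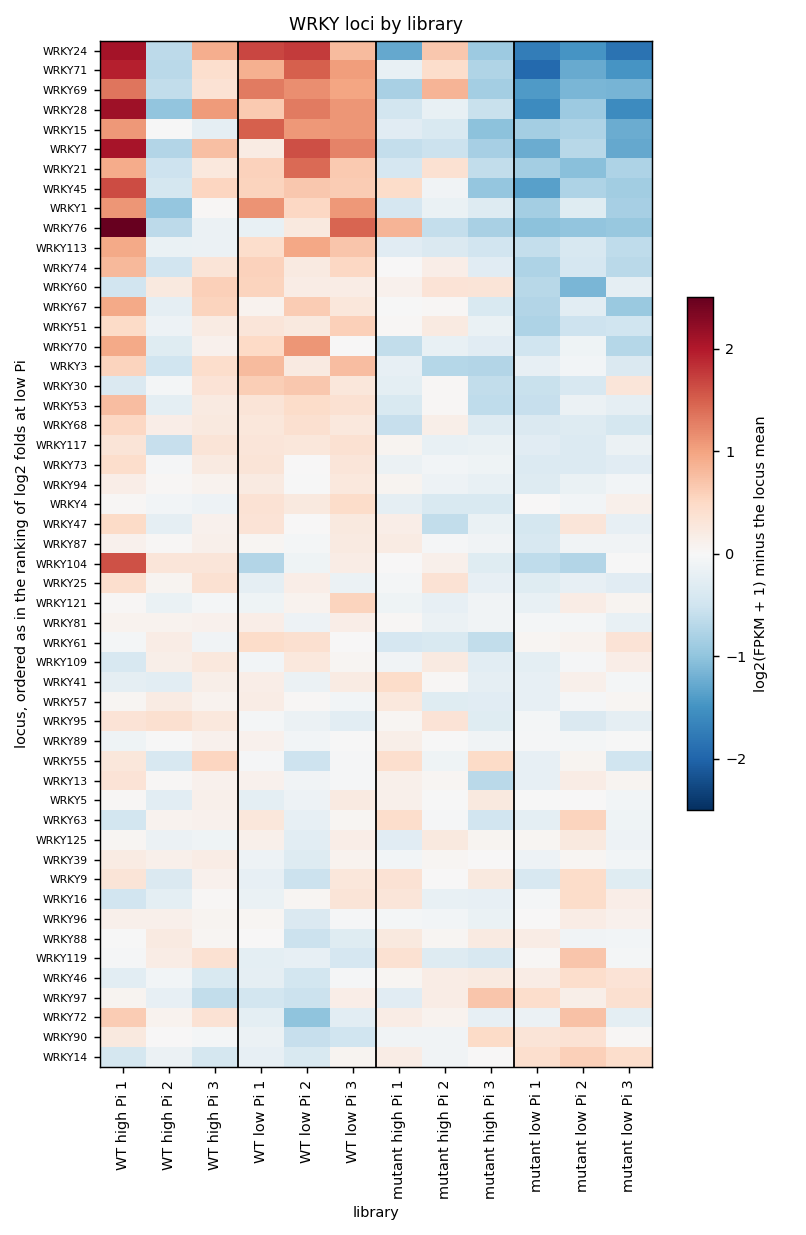
Level of each of the 52 tested WRKY loci (rows) in each of the 12 libraries (columns), as log2(FPKM + 1) minus the mean of that locus; colours stop at 2.5 in either direction, and WRKY76 in WTH1 lies above that limit. Most of the upper rows are low in the 3 mutant low-Pi libraries and high in the WT low-Pi libraries and in WTH1, where WRKY60 and WRKY30 are not high.

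To ask how the mutant differed from WT when Pi was low, the groups were compared across all genes with limma on log2(FPKM + 1). A call meant a Benjamini-Hochberg adjusted p under 0.05 over the 17630 genes tested. WRKY loci were lower in the mutant more often than higher: 16 of 52 were called lower (30.8%, background 11.1%) and 3 were called higher (5.77%, background 4.72%), 36.5% in all against 15.9%. Among all tested genes, 1963 were called lower and 833 higher, a split that became 1483 and 1282 after median-of-ratios scaling and 1615 and 1164 after upper-quartile scaling. The WRKY counts were then 15 lower and 4 higher, and 17 lower and 3 higher. The median log2 fold was −0.25 for WRKY loci and −0.07 for all tested genes. A called log2 fold of at least 1 in size was found for 11 loci (21.2%, background 3.81%), and the genotypes did not overlap for 28 (53.8%, background 37.7%). The WRKY count ran from 8 without MTL1 to 22 without WTH2. It was 10 without WTL3, 11 without WTL2 and 12 without MTL2. Shares of all tested genes called in these fits are not given here, so a general change in calls cannot be told apart. In whole leaf blades, fewer cells of a type and less RNA per cell cannot be told apart.

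**Figure D2:**
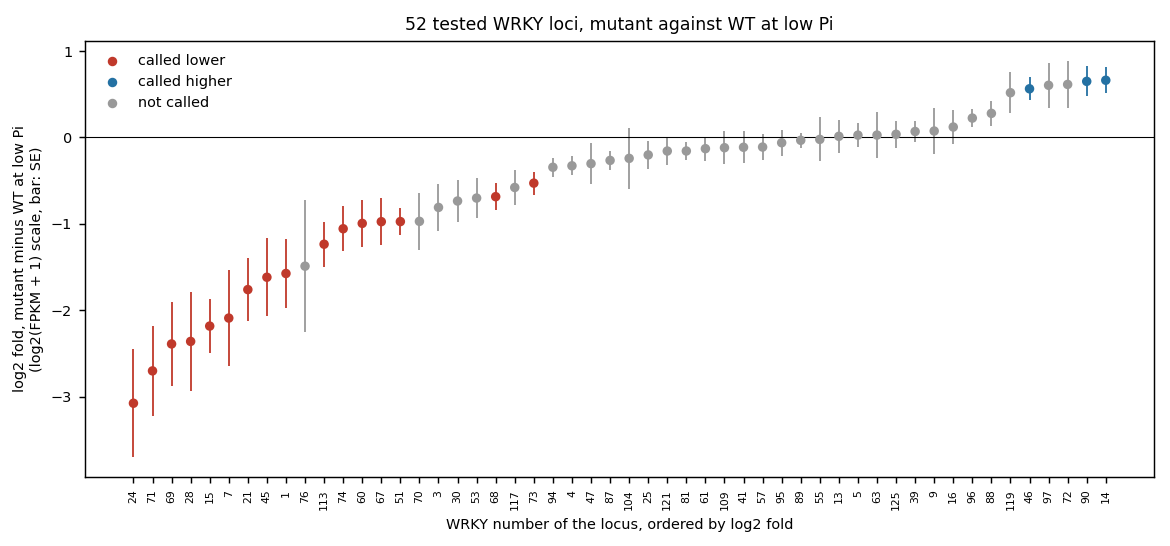
Log2 fold of the mutant against WT at low Pi for each of the 52 tested WRKY loci, ordered by size, with bars for the SE; the scale is log2(FPKM + 1). The 16 loci called lower run from −3.08 (WRKY24) to −0.53 (WRKY73), and the 3 called higher lie between 0.56 and 0.66.

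All 3 tested loci from a short list of WRKY numbers linked to Pi in rice were called lower in the mutant at low Pi. Over all 52 tested WRKY loci the count was 16 (30.8%), and over all tested genes the share was 11.1%. The list was chosen with earlier results of these data known. In the deposited annotation, WRKY28 and WRKY74 also carry a GO term for defence response, so the list overlaps the defence-annotated loci. WRKY74 (LOC_Os09g16510), whose overexpression in rice raised tolerance of low Pi, stood at 41.22, 31.98 and 39.66 FPKM in the WT low-Pi libraries and at 15.55, 20.26 and 16.86 in those of the mutant. The groups did not overlap, and the log2 fold was −1.06 (SE 0.26, adjusted p = 0.0201). This call was lost without WTL1 (0.0554) or WTL3 (0.0714) or MTL1 (0.0756) or MTL3 (0.051), within 0.00331 to 0.0756 over 19 alternatives. WRKY21 (LOC_Os01g60640), an activator of a phosphate transporter gene in rice, stood at 2.17, 4.71 and 2.36 FPKM in WT and at 0.19, 0.04 and 0.26 in the mutant. Every mutant library lay far under the lowest WT library, with a log2 fold of −1.76 (SE 0.36, adjusted p = 0.00957) that was called under all 18 alternatives run. WRKY28 (LOC_Os06g44010), linked in rice to arsenate and Pi accumulation, stood at 3.94, 6.69 and 5.71 FPKM in WT and at 0.06, 0.67 and 0.06 in the mutant. It fell by 2.36 on the log2 scale (SE 0.58, adjusted p = 0.0193), a call lost without WTL2 (0.063) or WTL3 (0.0655) or MTL1 (0.0694) or MTL3 (0.0523), within 0.00134 to 0.0694. The other 2 loci of this list were below the filter: WRKY108 (LOC_Os01g60600), which acts with WRKY21, had low-Pi values of 0.25, 0.81 and 0.77 FPKM in WT, against 0, 0 and 0.03 in the mutant. WRKY10 (LOC_Os01g09100) lay between 0.11 and 1.03 FPKM in all libraries, with overlapping groups.

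A list of WRKY numbers linked to defence in rice held 9 tested loci. Of these, 3 were called lower in the mutant at low Pi and none higher (background 11.1% and 4.72%). Over all 52 tested WRKY loci, 16 were called lower (30.8%), so the list does not stand out from the family. The list is not complete, since WRKY51 and WRKY67, given below with roles in resistance, were not on it. WRKY71 (LOC_Os02g08440), a defence factor that also represses gibberellin responses in aleurone, stood at 32.85, 50.82 and 36.84 FPKM in the WT low-Pi libraries and at 3.78, 6.63 and 5.59 in those of the mutant. The mean was 7.53-fold higher in WT, and the log2 fold was −2.70 (SE 0.52, adjusted p = 0.00753). WRKY24 (LOC_Os01g61080), a repressor of gibberellin and abscisic acid responses, had the largest fold of the 52 loci on the log2(FPKM + 1) scale. It stood at 21.81, 22.98 and 11.42 FPKM in WT and 1.18, 1.59 and 1.00 in the mutant (log2 fold −3.08, SE 0.63, adjusted p = 0.00909). As a ratio of group means, WT was 14.9-fold higher for WRKY24. That ratio was larger for the weaker WRKY76 (75.3), WRKY28 (20.7) and WRKY21 (18.9). Neither the WRKY71 nor the WRKY24 call was lost under any of 19 alternatives. WRKY45 (LOC_Os05g25770), needed in rice for blast resistance induced by salicylate analogues, was even across the WT low-Pi libraries, at 7.61, 8.29 and 8.09 FPKM. It was lower in those of the mutant, at 1.28, 2.44 and 2.20. In WT at high Pi it was uneven, at 17.08, 3.30 and 7.47 FPKM. Its log2 fold at low Pi was −1.62 (SE 0.45, adjusted p = 0.0328). This call was lost without WTL1 (0.0648), WTL2 (0.0837) or WTL3 (0.0934), without MTL1 (0.115), MTL2 (0.0667) or MTL3 (0.0608), and with no filter (0.0609), within 0.00139 to 0.115.

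The other 6 tested loci of the defence list were not called at low Pi. WRKY53 stood at 138.04, 152.68 and 143.98 FPKM in WT and at 74.07, 99.60 and 94.31 in the mutant, with no overlap (log2 fold −0.70, SE 0.24, adjusted p = 0.0654). WRKY53 was called without WTH1 (adjusted p = 0.0278) or WTH2 (0.034), and in a fit to the 6 low-Pi libraries (0.0113). WRKY30 (LOC_Os08g38990), whose overexpression raised blast and drought tolerance, had a log2 fold of −0.74 (SE 0.25, adjusted p = 0.0658), with groups that overlapped through MTL3; it was called without that library (0.0204). WRKY70 (LOC_Os05g39720), which favours defence over growth under insect attack, had one of −0.97 (SE 0.33, adjusted p = 0.0689). WRKY76 (LOC_Os09g25060), a repressor of defence, stood at 0.80, 1.42 and 4.56 FPKM in WT and at 0, 0.03 and 0.06 in the mutant; its spread left a log2 fold of −1.49 with an SE of 0.76 (adjusted p = 0.208), and it was called with a pseudocount of 0.1 (0.0487). WRKY13 (0.01, SE 0.19) and WRKY72 (LOC_Os11g29870; 0.61, SE 0.28) were not called either, with adjusted p of 0.973 and 0.155. Below the filter, WRKY62 (LOC_Os09g25070), the neighbour of WRKY76, did not exceed 0.90 FPKM in any low-Pi library. WRKY42 (LOC_Os02g26430) was listed at 0 in all 6 mutant libraries and in WTH2, and at no more than 0.72 FPKM in the others.

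Among tested loci in neither list, 10 of 40 were called lower at low Pi and 3 higher (background 11.1% and 4.72%). WRKY15 (LOC_Os01g46800) stood at 11.61, 8.52 and 8.60 FPKM in WT and at 1.47, 1.63 and 0.89 in the mutant (log2 fold −2.18, SE 0.31, adjusted p = 0.00244). It had the smallest adjusted p of the 52 loci in this comparison. WRKY69 (LOC_Os08g29660) stood at 12.06, 10.76 and 9.55 FPKM in WT and at 0.99, 1.39 and 1.36 in the mutant (−2.39, SE 0.48, adjusted p = 0.00874). WRKY113 (LOC_Os06g06360) was weakly expressed, at 1.25, 2.24 and 1.66 FPKM in WT and 0.10, 0.26 and 0.07 in the mutant (−1.24, SE 0.26, adjusted p = 0.0107). WRKY51 (LOC_Os04g21950), a positive factor in bacterial blight resistance that acts with WRKY71 in aleurone, was more abundant, at 33.75, 32.02 and 41.18 FPKM in WT and 15.40, 18.57 and 18.89 in the mutant (−0.97, SE 0.16, adjusted p = 0.00408). All of these groups were fully separated, and these 4 calls held under every alternative run.

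The 6 further falls were lost in at least 1 alternative. WRKY1 (LOC_Os01g14440) went from 19.96 ± 4.56 FPKM in WT to 6.02 ± 1.58 in the mutant (−1.58, adjusted p = 0.0218). Its call was lost without WTL1 (0.0595) or WTL3 (0.0776) or MTL1 (0.0774) or MTL3 (0.0584), within 0.00361 to 0.0776. WRKY7 (LOC_Os05g46020) went from 10.2 ± 4.93 to 1.49 ± 0.602 FPKM (−2.09, adjusted p = 0.028), lost without WTL2 (0.0957) or WTL3 (0.0943), without MTL1 (0.0887), MTL2 (0.0544) or MTL3 (0.0714), and with no filter (0.0535), within 0.00722 to 0.0957. WRKY67 (LOC_Os05g09020), a positive factor in blast and blight resistance, went from 59.7 ± 12.3 to 30.05 ± 7.71 FPKM (−0.98, adjusted p = 0.0336). It was lost without WTL2 (0.112) or WTL3 (0.0855) or MTL1 (0.104) or MTL3 (0.098), with no filter (0.0591) and after median-of-ratios scaling (0.0523), within 0.0118 to 0.112. WRKY60 (LOC_Os03g45450) went from 4.73 ± 0.892 to 1.95 ± 0.93 FPKM (−0.995, adjusted p = 0.0307), lost without WTL1 (0.088), WTL2 (0.0598) or WTL3 (0.072), without MTL1 (0.0859) or MTL2 (0.114), and with no filter (0.058), within 0.0118 to 0.114. WRKY68 (LOC_Os04g51560) went from 31.4 ± 1.57 to 19.1 ± 0.757 FPKM (−0.69, adjusted p = 0.0156), lost without WTL2 (0.0524) or MTL1 (0.05), within 0.00296 to 0.0524. WRKY73 (LOC_Os06g05380) went from 2.39 ± 0.388 to 1.34 ± 0.0643 FPKM (−0.53, adjusted p = 0.022), lost without WTL1 (0.0644) or WTL3 (0.0855) or MTL1 (0.0704) or MTL2 (0.0688), within 0.0152 to 0.0855.

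**Figure D3:**
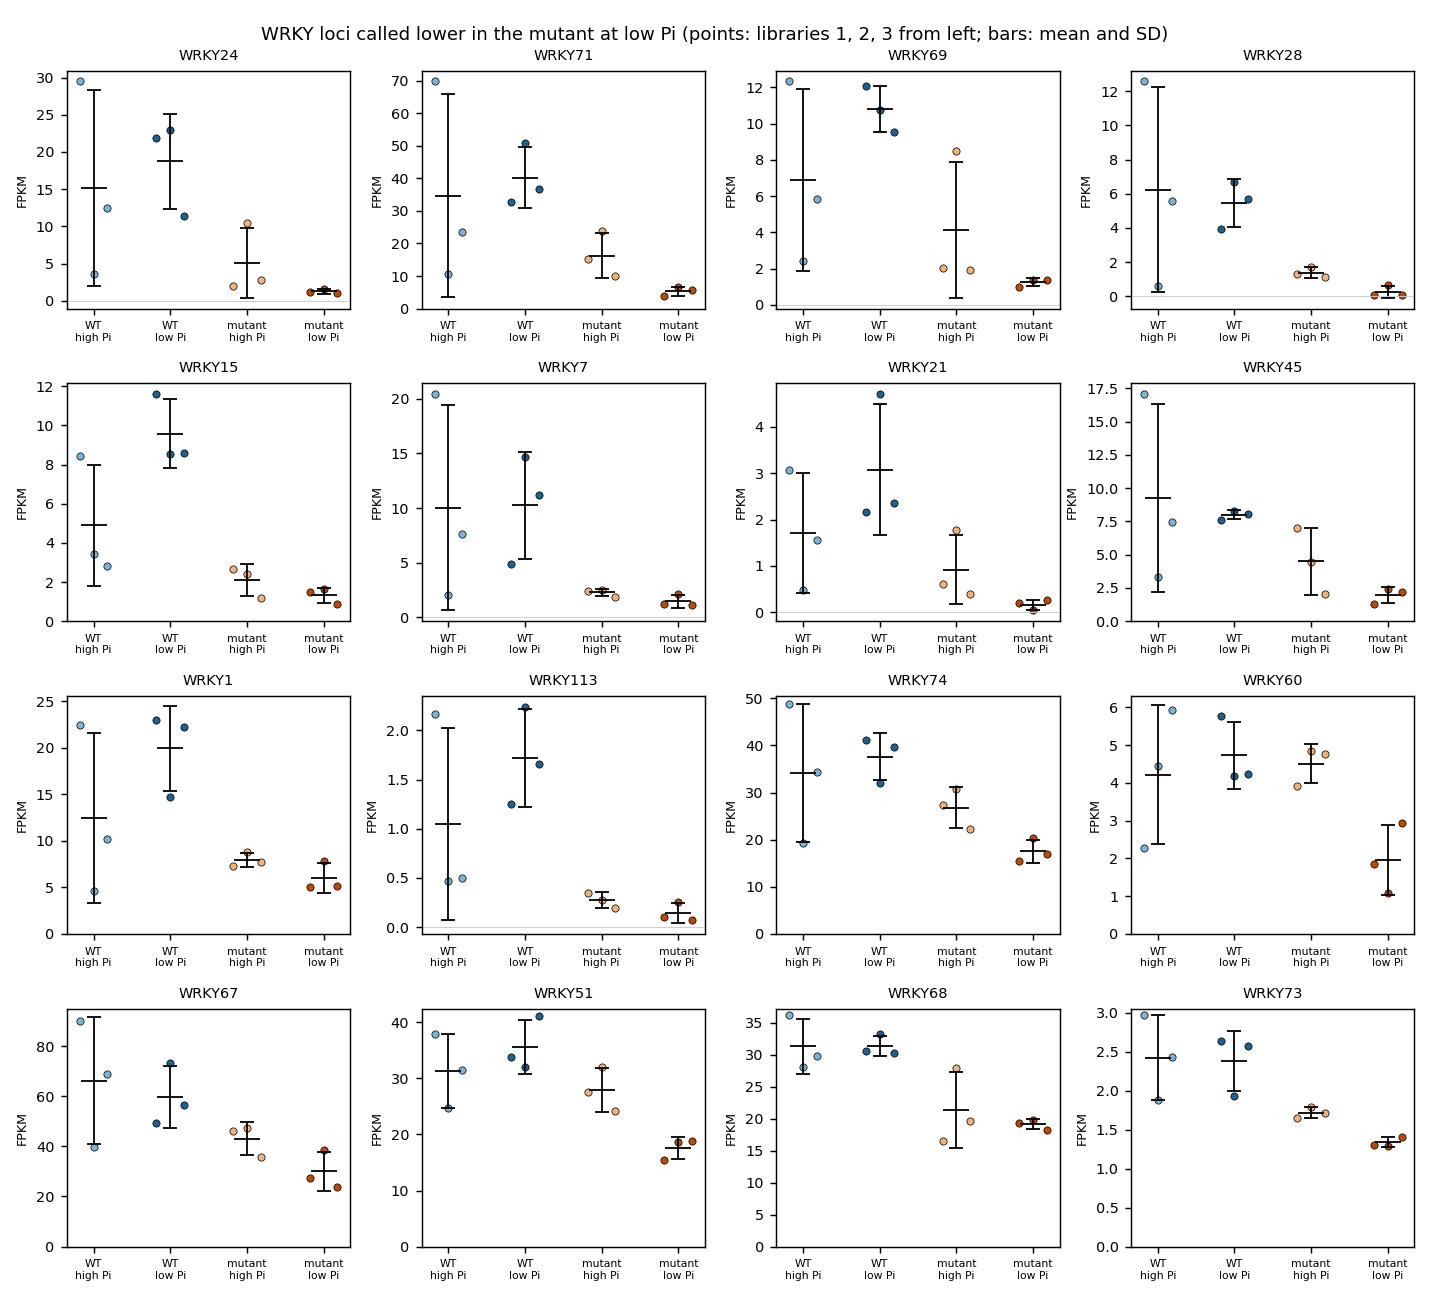
FPKM in each library (points, libraries 1 to 3 from left to right) for the 16 WRKY loci called lower in the mutant at low Pi, with the mean and SD of each group. In every panel the 3 mutant low-Pi points lie below the 3 WT low-Pi points, while the WT high-Pi points spread widely, for WRKY71 from 10.53 to 69.74 FPKM.

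Against this direction, 3 loci were higher in the mutant at low Pi. WRKY90 was the most abundant of them, at 61.97, 45.59 and 47.97 FPKM in WT and 85.67, 88.75 and 70.26 in the mutant (0.65, SE 0.17, adjusted p = 0.0274). Its call was lost without WTL2 (0.0921) or WTL3 (0.0975) or MTL1 (0.0923) or MTL2 (0.095), within 0.0108 to 0.0975. WRKY46 (LOC_Os11g02480), in a run of 5 loci on chromosome 11, went from 2.17 ± 0.465 to 3.67 ± 0.393 FPKM (0.56, adjusted p = 0.017), lost without WTL2 (0.0584) or MTL2 (0.0667), within 0.01 to 0.0667. WRKY14 (LOC_Os01g53040) went from 0.487 ± 0.237 to 1.34 ± 0.159 FPKM (0.66, adjusted p = 0.0149), lost without WTL2 (0.0548), within 0.0108 to 0.0548 over 15 alternatives. It reached an FPKM of 1 only in the mutant low-Pi libraries, at 1.24, 1.52 and 1.25. WRKY14 thus passed the filter only through the group in which it was higher, and its call is weak support. Without MTL1, MTL2 or MTL3 it was not tested. The mutant also had the higher mean of WRKY14 at high Pi, 0.707 ± 0.168 against 0.317 ± 0.159 FPKM, without a call (0.38, adjusted p = 0.181).

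The deposited annotation was then set beside the calls. Of 22 tested loci with a GO term for defence response in the tables, 12 were called lower at low Pi and 0 higher, with a median log2 fold of −0.97. Of the 30 others, 4 were called lower and 3 higher, with a median of −0.09. This division was made after the values had been seen and was not tested. Over all tested genes, 11.1% were called lower and 4.72% higher at low Pi. Few of the falls came from runs of neighbouring loci: 1 of 14 loci in runs was called lower (WRKY21) and 15 of 38 outside them. By level, 7 of 17 loci averaging at least 10 FPKM and 9 of 35 below that were called lower.

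The same comparison of mutant and WT was made at high Pi, where none of the 52 WRKY loci was called (0%, background 3.58%, made up of 1.3% higher and 2.27% lower). At an unadjusted p below 0.05 in the limma fit, 12 passed (23.1%, against 21.9% of all tested genes), and 12 had no overlap between genotypes (23.1%, background 24.2%). The direction leaned the same way as at low Pi. Only 14 loci (26.9%) had a log2 fold above 0, against 47.0% of all tested genes, and the median was −0.25 against −0.02. Of the 16 loci called lower at low Pi, 15 were also below 0 at high Pi, and WRKY60 lay at 0.14; their median log2 fold was −0.57 at high Pi and −1.60 at low Pi, the latter being the measure by which they were called. WRKY7 had the largest negative value of the 16 at high Pi, with 20.43, 2.09 and 7.61 FPKM in WT and 2.41, 2.53 and 1.89 in the mutant (−1.34, SE 0.56, adjusted p = 0.193). WRKY68 (−0.56, SE 0.16, adjusted p = 0.0766) and WRKY61 (LOC_Os11g45850; −0.49, SE 0.14, adjusted p = 0.0727) were closest to a call. WRKY68 was called without MTH2 (0.0287) and WRKY61 without WTL3 (0.0455). Leaving out WTH2 gave 3 calls, all lower in the mutant at high Pi: WRKY28 (0.0258), WRKY3 (0.0463) and WRKY7 (0.049). The share of all tested genes called without WTH2 is not given here, so a general rise in calls cannot be told apart. Leaving out WTH1, the highest WT high-Pi library for 15 of the 16 loci, gave 0 calls.

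The WT high-Pi libraries differed widely in WRKY transcripts. WRKY71 stood at 69.74, 10.53 and 23.62 FPKM in WTH1, WTH2 and WTH3, WRKY24 at 29.47, 3.55 and 12.52, and WRKY28 at 12.57, 0.58 and 5.59. Library 1 was the highest and library 2 the lowest in each case, and the highest value exceeded the lowest 6.62-fold for WRKY71, 8.30-fold for WRKY24 and 21.7-fold for WRKY28. Across the 52 loci, library 1 was the highest of the 3 for 33 (63.5%, against 33.3% of all tested genes) and library 2 the lowest for 32 (61.5%, against 38.2%). For the 16 loci called lower at low Pi these counts were 15 and 14. The median SD on the log2 scale in this group was 0.312 for WRKY loci and 0.148 for all tested genes. In the same order it was 0.223 and 0.151 for WT at low Pi, 0.228 and 0.172 for the high-Pi mutant libraries, and 0.178 and 0.133 for the low-Pi ones. In the mutant at high Pi, library 2 was the highest for 13 of the 16 loci and library 3 the lowest for 11. WRKY loci varied together between libraries of a group, and their calls are not independent of each other. WRKY62 reached its highest value, 4.39 FPKM, in WTH1, and WRKY76 reached 12.68 FPKM there against 0.30 and 0.85 in the other 2 WT high-Pi libraries.

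To describe the response to low Pi, low was compared with high Pi within each genotype. In WT, 1 of 52 WRKY loci was called, a rise (1.92%, background 13.3% in either direction, 8.43% for rises and 4.87% for falls). WRKY4 (LOC_Os03g55164) rose from 1.93, 1.76 and 1.65 to 2.69, 2.39 and 2.95 FPKM (0.40, SE 0.11, adjusted p = 0.0321). The call was lost without WTH1 (0.0514), WTH2 (0.0819) or WTH3 (0.0937), without WTL1 (0.0757) or WTL3 (0.132), and in a fit to the 6 WT libraries (0.0791), within 0.0304 to 0.132. The split of calls depended on scaling, with 1 rise and 3 falls after median-of-ratios scaling and 1 of each after upper-quartile scaling, against 1 rise and 0 falls unscaled. Over all tested genes it was 1487 rises and 858 falls unscaled, 1108 and 1147 after median-of-ratios scaling, and 1308 and 975 after upper-quartile scaling. The median log2 fold of WRKY loci, 0.08, was close to that of all tested genes, 0.07. Without WTH1, WRKY4 was not called and 3 other loci were called, all as rises (background 6.3%, and 9.73% in either direction). These were WRKY15 (1.35, SE 0.23, adjusted p = 0.00635), WRKY1 (1.38, SE 0.29, adjusted p = 0.015) and WRKY113 (0.86, SE 0.17, adjusted p = 0.0126). With all 12 libraries their log2 folds were 0.95, 0.85 and 0.49, with adjusted p of 0.0675, 0.185 and 0.25. No WRKY locus was called in WT without WTH2, WTH3 or WTL3. Leaving out a mutant library, which alters only the pooled spread and the genes tested, gave 2 calls without MTH2 or MTL2 and 3 without MTH3, through falls of WRKY95, WRKY72 and WRKY90. Matching shares of all tested genes for these fits are not given here.

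In the mutant, 4 of 52 WRKY loci were called, 2 rises and 2 falls (7.69%, background 18.8%; rises 3.85%, background 10.5%; falls 3.85%, background 8.28%). WRKY61, in a run of 4 loci on chromosome 11 and among the 5 most abundant WRKY loci, rose from 28.40, 29.21 and 24.57 to 39.53, 40.54 and 48.32 FPKM (0.62, SE 0.14, adjusted p = 0.00966), a call kept in all 19 alternatives. WRKY4 rose from 1.297 ± 0.15 to 1.93 ± 0.181 FPKM (0.35, SE 0.11, adjusted p = 0.0437), with a fold near that in WT. This call was lost in 13 of 18 alternatives, 10 of which left out 1 library (all but MTH1 and WTL2), within 0.0277 to 0.136. WRKY51 fell from 27.60, 31.97 and 24.17 to 15.40, 18.57 and 18.89 FPKM (−0.63, SE 0.16, adjusted p = 0.0195), lost without MTH2 (0.0777) or MTL1 (0.0721), within 0.012 to 0.0777. WRKY60 fell from 3.92, 4.85 and 4.76 to 1.84, 1.08 and 2.93 FPKM (−0.95, SE 0.27, adjusted p = 0.0333), lost without MTH2 (0.0963) or MTH3 (0.0734), without MTL1 (0.0791) or MTL2 (0.123), and with no filter (0.0637), within 0.0125 to 0.123. WRKY71 went from 15.13, 23.77 and 9.92 to 3.78, 6.63 and 5.59 FPKM, with no overlap and no call (−1.39, SE 0.52, adjusted p = 0.0855). It was called without WTH1 (adjusted p = 0.0174) or WTH2 (0.0339) and in a fit to the 6 mutant libraries (0.0264). The count was 1 without MTH2 or MTL1 and 2 without MTH3 or MTL2. Without WTH2, and in a fit to the 6 mutant libraries, it was 6, with 1 rise and 5 falls: WRKY4 was not called, and WRKY71, WRKY28 and WRKY74 were called as falls. Shares of all tested genes called in these alternative fits are not given here. The median log2 fold was −0.12 for WRKY loci and 0.00 for all tested genes, and 20 loci (38.5%) lay above 0 against 50.2% of all tested genes.

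**Figure D4:**
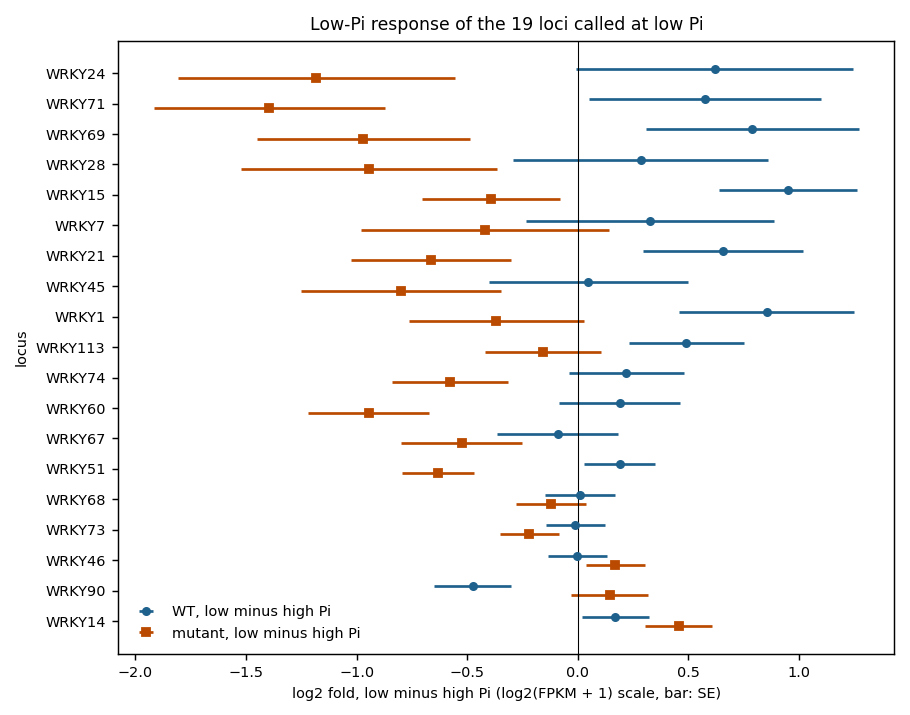
Log2 fold of low against high Pi in WT (circles) and in the mutant (squares), with bars for the SE, for the 19 WRKY loci called between genotypes at low Pi. For 14 of the 16 loci called lower, the WT value lies above 0 and the mutant value below 0, with SE bars that reach 0 for several of them.

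Whether the response to low Pi differed between genotypes was tested as an interaction, in which negative values mean a lower response in the mutant than in WT. None of the 52 WRKY loci was called (0%, background 3.64%, made up of 1.49% positive and 2.14% negative). In the limma fit, 10 passed an unadjusted p below 0.05 (19.2%, against 18.9% of all tested genes). The genotype difference was therefore not shown to differ between Pi levels for any WRKY locus with all libraries in the fit. The 16 loci called lower at low Pi had median log2 folds of 0.31 in WT and −0.61 in the mutant. These medians share the low-Pi libraries with the comparison that chose the loci, and their directions are not separate evidence. WRKY71 had a low-Pi log2 fold of 0.57 in WT (SE 0.52, adjusted p = 0.518), where the groups overlapped, and of −1.39 in the mutant. Neither response was called, and its interaction was −1.97 (SE 0.74, adjusted p = 0.175). WRKY51 had the smallest adjusted p named here, 0.0724 (−0.82, SE 0.23).

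The interaction was sensitive to 1 library. Without WTH1, 5 WRKY loci were called, all negative (background 3.08% for this direction and 4.72% for both). They were WRKY71 (−2.66, SE 0.51, adjusted p = 0.0186), WRKY15 (−1.75, SE 0.32, adjusted p = 0.0153) and WRKY1 (−1.74, SE 0.39, adjusted p = 0.0316). WRKY51 (−0.97, SE 0.21, adjusted p = 0.0321) and WRKY113 (−1.01, SE 0.23, adjusted p = 0.0363) were called as well. No WRKY locus was called in any of the 11 other fits without 1 library. At low Pi, where the genotype comparison does not use that library's level, the count without it was 20, of which 17 were lower (background 11.5%).

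Proteins that act with WRKY factors were read from lists matched by description. VQ-motif proteins bind WRKY domains and tune their activity. Of 19 tested VQ loci, 8 were called lower in the mutant at low Pi and 0 higher (background 11.1% and 4.72%), with a median log2 fold of −1.14 against −0.07 over all tested genes. From high to low Pi, 3 rose and 0 fell in WT (background 8.43% and 4.87%), and 1 rose and 1 fell in the mutant (background 10.5% and 8.28%). At high Pi, 0 were called between genotypes (background 3.58%). LOC_Os01g54400 had low-Pi values of 33.77, 36.79 and 32.55 FPKM in WT, against 9.39, 10.47 and 10.04 in the mutant (−1.69, SE 0.19, adjusted p = 0.00103). It fell in the mutant from 20.88, 24.47 and 13.95 FPKM at high Pi (−0.89, adjusted p = 0.0085). In WT it rose from 23.57, 15.89 and 24.03 FPKM (0.70, adjusted p = 0.0341), a call lost without WTH2 (0.117) or WTL1 (0.0726), WTL2 (0.0911) or WTL3 (0.0811), with no filter (0.0572) and after median-of-ratios scaling (0.056), within 0.00996 to 0.117. LOC_Os04g34050 followed the same order at a lower level, with group means of 1.90 and 3.99 FPKM in WT at high and low Pi and 1.65 and 1.27 in the mutant. It rose in WT (0.79, adjusted p = 0.011) and its low-Pi level was lower in the mutant than in WT (−1.14, adjusted p = 0.00277).

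**Figure D5:**
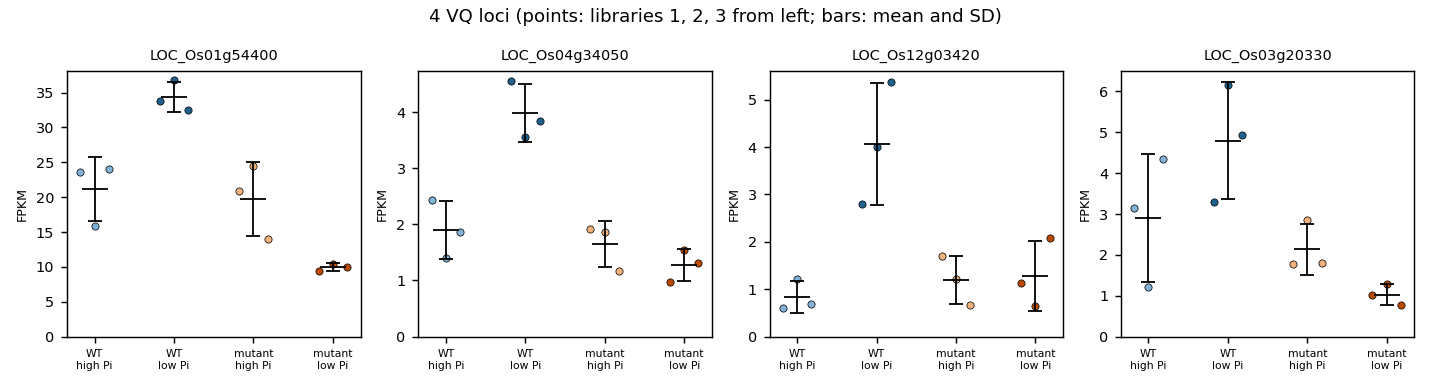
FPKM in each library (points, libraries 1 to 3 from left to right) with the mean and SD of each group for the 4 VQ-motif loci with the smallest p. In each panel the 3 WT low-Pi points lie above the 3 mutant low-Pi points.

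Of 35 tested MAP kinase cascade loci, which relay defence and stress signals to WRKY factors, 8 were called lower and 2 higher in the mutant at low Pi (background 11.1% and 4.72%), with a median log2 fold of −0.12 against −0.07 over all tested genes. The MAP kinase kinase LOC_Os02g54600 stood at 18.52, 22.58 and 32.00 FPKM in WT and at 6.37, 7.29 and 7.51 in the mutant (−1.62, SE 0.28, adjusted p = 0.00495). The neighbouring MAP kinase kinase kinase loci LOC_Os01g50420 (−2.18, adjusted p = 0.00607) and LOC_Os01g50410 (−2.36, adjusted p = 0.00609) were lower as well. At high Pi, 1 locus of this list was called higher and 2 lower (background 1.3% and 2.27%).

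Among products that accumulate in defence, 4 of 20 pathogenesis-related, chitinase and thaumatin loci were called lower and 1 higher in the mutant at low Pi (background 11.1% and 4.72%). LOC_Os08g28670, a Bet v I family protein, was lower in the mutant at both Pi levels, with low-Pi values of 12.48, 9.83 and 11.76 FPKM in WT, against 1.85, 1.63 and 1.74 in the mutant (−2.17, SE 0.16, adjusted p = 7.62e-05). At high Pi its mean was 7.55 ± 1.42 FPKM for WT, against 0.707 ± 0.341 for the mutant (−2.33, adjusted p = 0.000211). The chitinase CHIT16 (LOC_Os03g04060) was lower at low Pi (−1.96, SE 0.32, adjusted p = 0.00389). The 1 locus called higher was the thaumatin LOC_Os09g36580 (0.72, SE 0.21, adjusted p = 0.0385), a call lost in 7 of 19 alternatives. The chitinase CHIT12 (LOC_Os08g41100) was not called between genotypes at low Pi (0.45, SE 0.17, adjusted p = 0.0969). From high to low Pi, CHIT12 rose in WT (1.03, adjusted p = 0.00287) and in the mutant (1.75, adjusted p = 0.000108). Of 9 tested terpene synthase loci, enzymes among which are those of diterpenoid phytoalexins, 2 were lower at low Pi (background 11.1%) and 2 at high Pi (background 2.27%), with none higher. Of 6 tested loci of salicylate synthesis and perception, matched as phenylalanine ammonia-lyase, isochorismate synthase or NPR1, none was called at low Pi (background 15.9%) and 1 was higher at high Pi (background 1.3%).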

How the data were processed

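Messenger RNA of leaf blades was sequenced in 12 libraries. The authors deposited 4 tables with FPKM per library for 32846 genes; CASAVA 2.17, HISAT2 2.0.5 and StringTie 1.3.6 are named in the submitters' processing notes, and no source used here gives the genome build, the annotation or the handling of multi-mapped reads. Every library stood in 2 tables with identical values. The tables also hold the authors' q-value, deposited to 2 decimals. By the authors' deposited table it was below 0.05 for 3 (WT, Pi), 10 (mutant, Pi), 2 (genotype, high Pi) and 26 (genotype, low Pi) of 104 WRKY loci. The share of all genes below that q-value is not given here, so these counts cannot be read as high or low. The 104 loci include the 52 below the filter used here. A further 2 columns without a label were not used. Without counts the depth cannot be stated, and values carry no counting interval.

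FPKM was transformed as log2(FPKM + 1), which understates changes of weakly expressed genes. The 17630 genes that reached FPKM 1 in 3 or more libraries were fitted with limma 3.58.1 in R 4.3.3 (1 model, 4 groups, mean trend, two-sided, no block), and p-values were adjusted over all of them by Benjamini-Hochberg. The fit was also run on simulated data, with noise drawn separately for each gene and folds added to the WT low-Pi libraries. WRKY loci varied together between libraries, so that run does not show how the fit performs for them. Tables and plots used Python 3.11.15, pandas 2.3.3, numpy 2.4.6 and matplotlib 3.10.9. Named loci were all WRKY loci called in any of 5 contrasts, the Pi-linked and defence-linked WRKY lists, the 5 most abundant WRKY loci, and up to 4 loci per partner list. WRKY3, WRKY12, WRKY77, WRKY95 and WRKY96, named for calls under alternatives or for their maxima, were chosen after their values were seen. The members and lists were chosen with earlier results of these data known. Alternatives changed the pseudocount (0.1), the filter, the scaling, the libraries in the fit and a replicate block. The filter alternatives were none and FPKM 5.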

Additional observations from a re-analysis of the deposited data

Results flagged for a closer look

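Among the tested loci of the partner lists, the response to low Pi differed between genotypes for 3 in the limma interaction test. They were 2 of 19 VQ loci and 1 of 20 pathogenesis-related, chitinase and thaumatin loci. Over all 17630 tested genes, 641 were called in this test (3.64%), so these 3 are a small part of the loci called outside the WRKY family. The VQ locus LOC_Os01g54400 had an interaction of −1.58 (SE 0.27, adjusted p = 0.0107), with a rise of 0.70 in WT and a fall in the mutant (−0.89), and kept its call in all 18 alternatives. The VQ locus LOC_Os04g34050 had an interaction of −1.01 (adjusted p = 0.0428), with responses of 0.79 in WT and −0.22 in the mutant. Its call was lost in 13 of 17 alternatives, 10 of which left out 1 library (all but those without WTH1 or MTH3), within 0.0251 to 0.104. The thaumatin locus LOC_Os09g36580 had an interaction of 1.29 (adjusted p = 0.0379), with responses of −0.18 in WT and 1.11 in the mutant. Its call was lost in 10 of 18 alternatives, 9 of which left out 1 library (all but those without WTH1, WTL1 or WTL2), within 0.016 to 0.0893.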

How the results depend on the processing

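Of 24 calls of single WRKY loci, 8 held in every alternative in which the locus was tested, and the other 16 were lost in at least 1; of 444 alternative values, 79 missed the threshold, 66 of them with 1 library left out, and 0 changed direction. The count of WRKY loci called in WT by Pi, 1 of 52, rose to 2 when no filter was used, was 0 with a stricter filter of FPKM 5, 4 after median-of-ratios and 2 after upper-quartile scaling, and 0 to 3 without 1 library. In the mutant by Pi, 4 became 2 when unfiltered and 2 under the stricter filter, and 1 to 6 without 1 library. Between genotypes at high Pi, 0 became 1 with no filter and 0 to 3 without 1 library. Between genotypes at low Pi, 19 became 8 to 22 without 1 library, and 14 to 22 in the other settings. The interaction count, 0, became 1 (WRKY96) after median-of-ratios scaling and 0 to 5 without 1 library. Replicates of the same number did not pair: correlations of their deviations from group means ran from −0.383 to −0.004. With a replicate block, the counts were 1, 3, 0, 18 and 0 for WT, mutant, high Pi, low Pi and the interaction; WRKY4 (in WT and in the mutant), WRKY7 and WRKY67 were no longer called, and WRKY15 (in WT) and WRKY3 (between genotypes at low Pi, a lower mutant level, adjusted p = 0.0482) were gained. Among partner loci named above, the block also ended the calls of the WT rise of LOC_Os01g54400 (adjusted p = 0.0633) and of the interaction of LOC_Os04g34050 (0.0764). Except where stated above, shares of all tested genes called under the alternatives are not given, so changes in WRKY counts cannot be set against general changes. FPKM without counts leaves precision at low levels unknown.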
